A study of Rattus norvegicus with 12 samples.

Results

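Slirp and Alkbh1 are neighbouring rat genes that share one accessible promoter region on chromosome 6, and the length of the open-chromatin peak at that region is described here in the amygdala 1 h after ethanol. Chromatin accessibility was measured by ATAC-seq, in which a transposase cuts and tags DNA that is free of tightly packed nucleosomes, and each library is represented by its list of peaks, the stretches where such cuts pile up. Adult male Sprague Dawley rats, wild type by their labels, were the source of the 12 amygdala libraries. Of these animals, 6 had been injected intraperitoneally with saline (Control) and 6 with ethanol at 1 g/kg (Ethanol). The tissue was taken whole with its central, medial and basolateral nuclei, so every value is an average over the cell types of the amygdala. A listed peak cannot tell a change within cells apart from a change in how many cells carry the open site.

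SLIRP is a small RNA-binding protein of mitochondria that works as the partner of LRPPRC, and the pair keeps mitochondrial messenger RNAs stable for translation. ALKBH1 is a member of the AlkB family of dioxygenases, enzymes that use iron and 2-oxoglutarate to take methyl groups off nucleic acids, and it acts on methylated bases of transfer RNAs, including those of mitochondria. Genes that lie head to head can be read in opposite directions from one open stretch of DNA, and such shared promoters are usually nucleosome-poor in many tissues. The width of an ATAC-seq peak at a promoter reflects both the open stretch and how much of the signal at its sides passes the peak caller's threshold.

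The region was selected on measured values. Its width had been seen to differ between Control and Ethanol in these same lists, so its width, edges and score are given below as a description, and no test of them is offered as support. All peaks that overlap chromosome 6 from 111425000 to 111528000 (rat build Rnor_6.0) were taken. They numbered 55 of the 730912 peaks in the 12 lists and merged, where they overlapped by at least 1 bp, into 6 of the 118874 merged regions of the series. The merged region assigned to both genes by the study's peak annotation spans positions 111475450 to 111477839, a length of 2390 bp, and it holds 12 of the 55 peaks. The other 5 merged regions are its neighbours. No annotation of the lists' own build was used here, so the position of either gene's start inside the region was not checked.

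The promoter sequence is shown to place the 2 genes relative to each other. In the RefSeq promoter windows (build GRCr8, from 250 bases before to 50 bases after a gene's first base), both genes had an entry. Slirp lies on the plus strand and Alkbh1 on the minus strand, and their windows share 75 bases. The first base of Slirp precedes the first base of Alkbh1 on the plus strand, so the first 25 bases of each gene are the same stretch of DNA read from opposite strands. The stretch below is the plus strand of GRCr8 chr6:112819434-112819707, 274 bases long, which starts 250 bases before Slirp. The 24 capitals run from the first base of Slirp to the base next to the first base of Alkbh1.
Slirp and Alkbh1 promoter: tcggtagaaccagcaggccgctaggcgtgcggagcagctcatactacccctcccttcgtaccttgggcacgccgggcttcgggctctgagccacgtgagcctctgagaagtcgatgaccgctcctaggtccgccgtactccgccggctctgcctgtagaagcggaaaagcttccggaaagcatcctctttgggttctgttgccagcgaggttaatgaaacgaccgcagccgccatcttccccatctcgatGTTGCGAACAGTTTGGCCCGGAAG
Read left to right, the lower-case part leads up to Slirp. Read on the opposite strand, the same part follows the first base of Alkbh1 and lies inside that gene. The 250 bases before Alkbh1 lie to the right of the stretch and are not shown. The coordinates of GRCr8 and Rnor_6.0 cannot be exchanged, and none was carried over.

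Overlapping windows of opposite strands are not rare in the rat. Of the 33469 promoter windows in the table, 2865 (8.56%) overlapped a window of the opposite strand. The Slirp window held 25 CpG dinucleotides and 59.3% G or C, and the Alkbh1 window held 18 CpG dinucleotides and 47.3% G or C. Over all windows the medians were 7 CpG dinucleotides and 51.7% G or C. Both genes therefore have CpG-rich starts, above 83.4% of windows for Slirp and above 72.5% for Alkbh1.

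Letters of known regulatory motifs were searched on both strands. The core letters of ETS factor sites, CCGGAAG, occurred 2 times in the Slirp window and 1 time in the Alkbh1 window, and 1 of these matches lies in the capitals above, in the bases that both windows share. That motif is present in 8.75% of all windows. The E-box CACGTG occurred 1 time in the Slirp window and 0 times in the Alkbh1 window, against 6.42% of all windows. The GC box GGGCGG (33.1% of windows), CCAAT (37.5%), TATAAA (14.2%), the NRF1 letters GCGCATGC (2.47%), the cyclic AMP response letters TGACGT (7.94%) and the partial glucocorticoid receptor letters AGAACA (20.7%) had 0 matches in either window. CCGGAAG does not overlap the other motifs that matched, and a match is only a run of letters, not a bound site.

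The lists differed in size more between animals than between groups. Each held 50370 to 75847 peaks covering 75.6 to 134.6 Mb. The Control lists covered 87.8 ± 16.7 Mb (SD, n = 6) and the Ethanol lists 97.2 ± 20.8 Mb (SD, n = 6), and the median peak width of a list was between 1006 and 1301 bp. Read depth is unknown from these files, and a deeper library can give more and wider peaks. Peaks carry running numbers, and only 6.35% to 13.0% of the numbers were listed in a library, so a base outside a listed peak was not necessarily closed.

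The promoter peak was shorter in the Ethanol libraries. Every library had exactly 1 peak in the region. The peak covered 1778, 1041, 1975, 1830, 1820 and 2083 bp in Control 1 to 6. In Ethanol 1 to 6 it covered 916, 1199, 754, 728, 1237 and 1056 bp. Control 2 was the exception among the saline animals, with a peak shorter than 3 of the 6 Ethanol peaks, and the other 5 Control peaks were longer than every Ethanol peak. At least 5 of 6 Control libraries above every Ethanol library was met by 57 of the 21640 merged regions with a peak in all 12 libraries (0.263%), a rule set after the values were seen, and the promoter was chosen for its width.

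**Figure D1:**
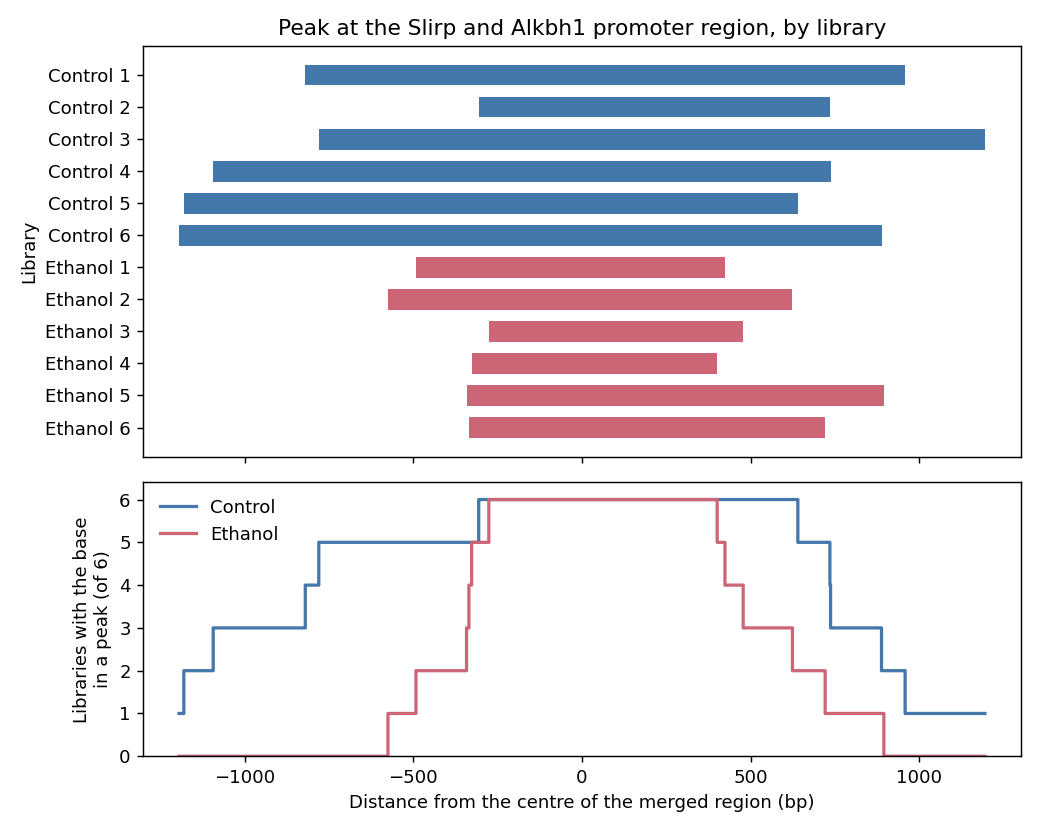
Upper panel, the peak of each library (bars) against the distance in bp from the centre of the merged region, saline libraries in blue and ethanol libraries in red. Lower panel, how many of the 6 libraries of each group hold each base in a peak. In 5 of 6 Control libraries the peak starts to the left of all Ethanol peaks, while the right ends of the groups overlap, and all 12 peaks share a core of 677 bp.

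On average the promoter peak was 1754.5 ± 368 bp long in Control (SD, n = 6) and 981.7 ± 218 bp in Ethanol (SD, n = 6). The Ethanol mean was 0.560 of the Control mean and 772.8 bp below it. Without Control 2 the Control mean was 1897.2 ± 128 bp (SD, n = 5). In a limma fit of log2 covered length over all 21640 regions, each library centred on its median, the promoter had a difference of -0.90 ± 0.18 (SE) between Ethanol and Control, where the median region had -0.01. Among all regions fitted, 7 had a lower log2 difference, which is a description only, since this region was chosen for its width. No region of the 21640 reached an adjusted p of 0.05 by limma (0%). At an unadjusted p under 0.05, 1120 regions differed in either direction (5.18%) and 481 were narrower (2.22%).

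Relative to its own library the peak was also shorter. Divided by the covered length of the whole list, the promoter peak of the Control libraries came to 20.3 ± 4.68 bp for each Mb listed (SD, n = 6), and that of the Ethanol libraries to 10.4 ± 3.01 bp (SD, n = 6). In units of the library's median peak width the promoter peak was 1.56 ± 0.319 times as wide in Control and 0.831 ± 0.142 times in Ethanol (SD, n = 6 each). Thus the Slirp and Alkbh1 peak was longer than a typical peak in the saline libraries as a group and shorter than a typical peak in the ethanol libraries as a group, with Control 2 at 0.924 and Ethanol 2 at 1.03 as the exceptions. Among regions with a peak in all 12 libraries it was ordinary in the saline animals, with a mean Control width above 44.1% of them and a median over those regions of 1912 bp.

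Both ends of the peak lay further in after ethanol, and the left end moved more. Positions are given as the distance from the left or the right bound of the merged region to the peak's end on that side. On the left, this distance was 375, 889, 415, 102, 15 and 0 bp in Control 1 to 6. It was 703, 620, 919, 868, 853 and 860 bp in Ethanol 1 to 6. The Control peaks, all but that of Control 2, began to the left of every Ethanol peak. A left end further out in at least 5 of 6 Control libraries than in every Ethanol library was seen at 86 regions (0.397%). The Control mean of this distance was 299.3 ± 339 bp and the Ethanol mean 803.8 ± 116 bp (SD, n = 6 each), a shift of 504.5 bp, which is 65.3% of the mean narrowing. A larger mean inward shift of the left end was found in 2.22% of the regions.

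On the right, the distance was 237, 460, 0, 458, 555 and 307 bp in Control 1 to 6. It was 771, 571, 717, 794, 300 and 474 bp in Ethanol 1 to 6. The groups overlapped here, since Ethanol 5 and Ethanol 6 ended within the Control range and 2 Control peaks, Control 1 and Control 3, ended beyond every Ethanol peak. That much separation of right ends was common, met by 3934 regions (18.2%). The Control mean was 336.2 ± 201 bp and the Ethanol mean 604.5 ± 193 bp (SD, n = 6 each), a shift of 268.3 bp, or 34.7% of the narrowing, and 6.38% of regions had a larger one.

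**Figure D2:**
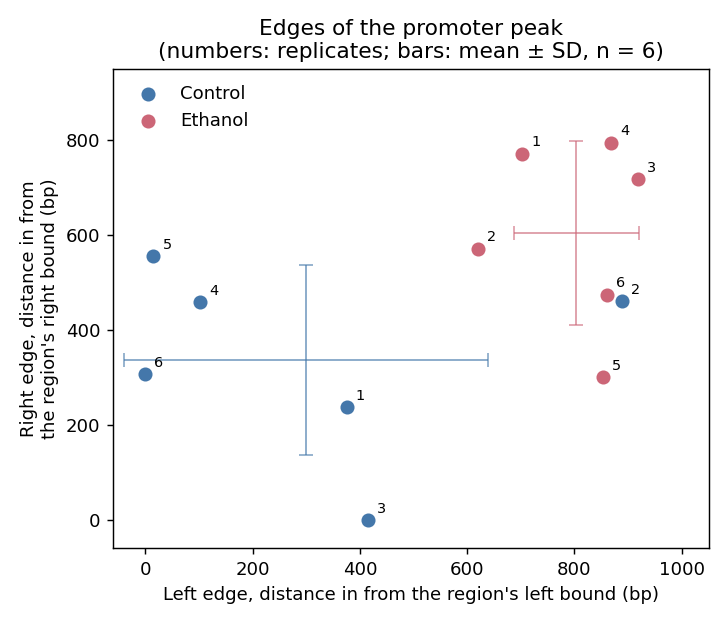
Left end of the promoter peak (horizontal axis) and right end (vertical axis), each as the distance in bp inward from the bound of the merged region, one point per library with its replicate number and mean ± SD per group (n = 6). The Ethanol points lie between 620 and 919 bp on the horizontal axis together with Control 2 at 889 bp, and the groups overlap on the vertical axis.

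The left ends of the ethanol peaks were also close to each other. They fell within 299 bp of each other in Ethanol and within 889 bp in Control. The Control range rests on Control 2 at 889 bp, since the other Control libraries lay between 0 and 415 bp. How many regions have such a difference of ranges was not counted. At the right end the 2 groups had like ranges, 555 bp in Control and 494 bp in Ethanol. No test of these ranges was made.

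Base by base, no position of the promoter was in a peak after ethanol alone. The stretch held in a peak by all 12 libraries was 677 bp long, from 111476369 to 111477045, which is 28.3% of the merged region. All 6 Control libraries held 946 bp in common. In 920 bp, at least 1 Control library and 0 Ethanol libraries had a peak, 620 bp on the left from 111475450 to 111476069 and 300 bp on the right from 111477540 to 111477839. On the left, the 205 bp from 111475865 to 111476069 were in a peak in 5 of 6 Control libraries and in 0 of 6 Ethanol libraries. The reverse, a base in a peak in at least 1 Ethanol library and in 0 Control libraries, was found at 0 bp.

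The score of the promoter peak was lower in the ethanol libraries as a group, with overlap. The score is the last column of each list, and what it measures is not given in the sources used here, so it was ranked within each library as a percentile, with tied peaks given the middle of their ranks. Many peaks of a list share a score, and a peak at the lowest score of its library can therefore have a percentile near 10. The percentile was 74.8, 77.3, 76.9, 82.4, 80.6 and 84.8 in Control 1 to 6. It was 64.4, 78.4, 67.6, 74.1, 62.0 and 79.5 in Ethanol 1 to 6. Control 4, Control 5 and Control 6 were above every Ethanol library, and at least 3 of 6 Control libraries were so at 803 regions (3.71%). In turn, 4 Ethanol libraries were below every Control library, for which the share of regions was not counted. The means were 79.5 ± 3.76 in Control and 71.0 ± 7.38 in Ethanol (SD, n = 6 each), a difference of -8.46 percentile points, and 3.69% of regions fell by more.

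Narrowing and a lower score do not always go together in these lists. Among the 481 regions narrower in Ethanol at an unadjusted limma p under 0.05, 228 (47.4%) had a lower mean score percentile. In 392 of the 481 (81.5%) both mean ends lay further in. The median inward shift over the 481 was 154.8 bp on the left and 179.8 bp on the right. Ends further in follow largely from choosing narrower regions. Neither share was counted over all 21640 regions, so neither is read as particular to narrower ones. The promoter of Slirp and Alkbh1 had larger shifts than these medians at both ends, and it is itself one of the 481.

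The next merged region lay 15351 bp to the left and 28306 bp to the right, and the nearest regions with a peak in all 12 libraries lay 39187 bp to the left and 28306 bp to the right. These 2 constant neighbours, at 41.5 kb left and 31.0 kb right from centre to centre, are set beside the promoter for comparison. The promoter was chosen for its own width, but the regions were named with earlier results of these data known.

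**Figure D3:**
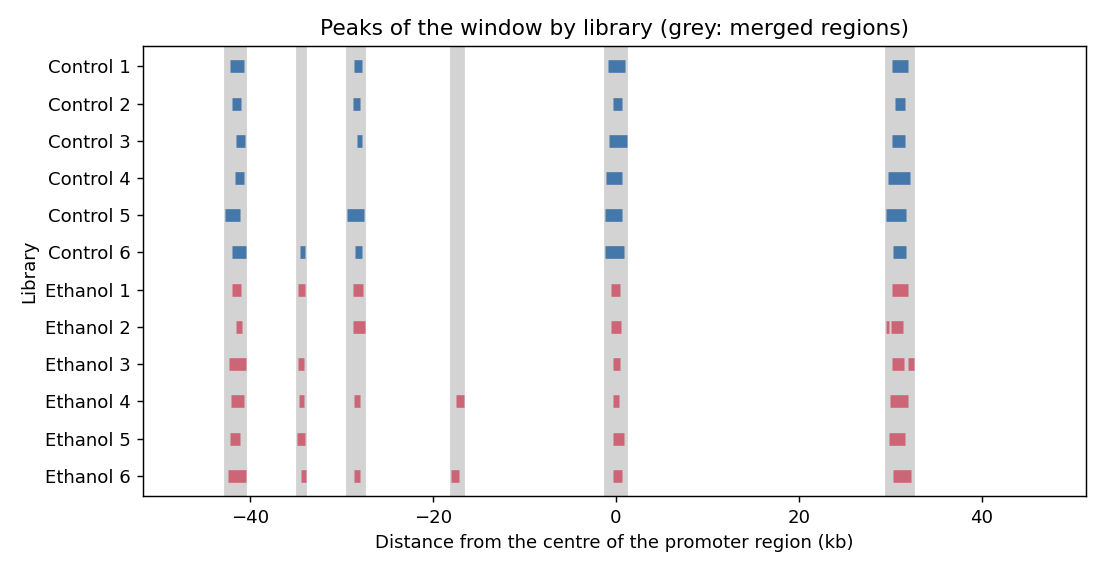
Peaks of the window by library against the distance in kb from the centre of the promoter region, saline in blue and ethanol in red, with merged regions in grey. The promoter and 2 neighbours have a peak in all 12 libraries, and the other 3 neighbours have a peak in 2, 6 and 9 libraries.

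The left constant neighbour, from 111433956 to 111436262, was not shorter in Ethanol as a group. It covered 1587, 970, 952, 997, 1624 and 1589 bp in Control 1 to 6. In Ethanol 1 to 6 it covered 1035, 758, 1939, 1435, 1018 and 1984 bp. The groups overlapped widely, with a Control mean of 1286.5 ± 344 bp and an Ethanol mean of 1361.5 ± 513 bp (SD, n = 6 each). The limma difference was -0.02 ± 0.24 on the log2 scale (SE), with an adjusted p of 0.998 over all regions.

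The right constant neighbour, from 111506146 to 111509232, was not narrower either. It covered 1776, 1053, 1421, 2371, 2265 and 1328 bp in Control 1 to 6. In Ethanol 1 to 6 it covered 1813, 1782, 1977, 1909, 1784 and 1890 bp. The Ethanol libraries were all within the Control range and close together, with an Ethanol mean of 1859 ± 78.8 bp against 1702 ± 531 bp in the Control libraries (SD, n = 6 each). The limma difference was 0.12 ± 0.20 (SE), with an adjusted p of 0.990. In Ethanol 2 and Ethanol 3 this region held 2 separate peaks, whereas the other 10 libraries had 1. Their covered lengths are sums, of 1357 and 425 bp in Ethanol 2 and of 1389 and 588 bp in Ethanol 3. The closeness of the Ethanol values and their higher mean rest on these sums.

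**Figure D4:**
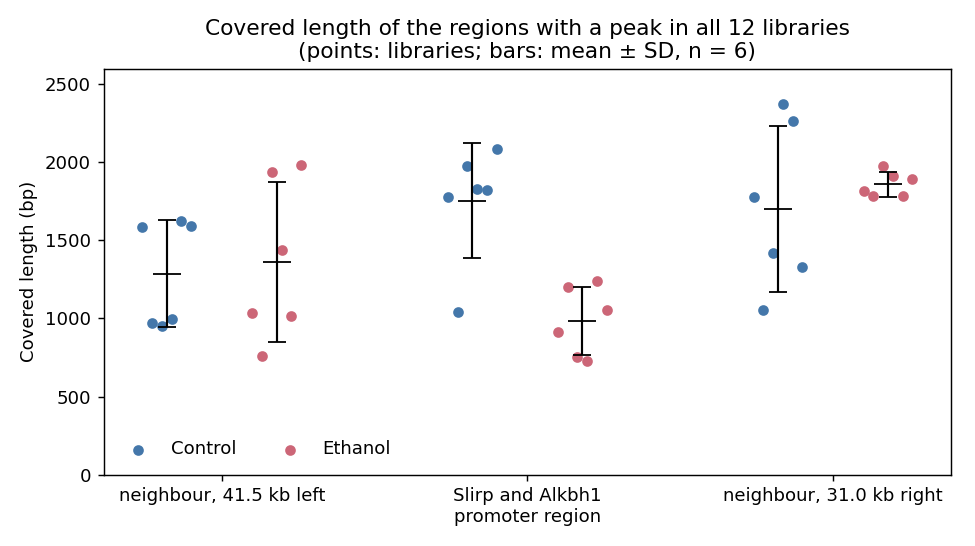
Covered length in bp of the promoter region and of the 2 neighbours with a peak in all 12 libraries, one point per library, with mean ± SD (n = 6). At the promoter the mean falls from 1754.5 bp in Control to 981.7 bp in Ethanol, while the groups overlap at both neighbours.

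The order of the 3 constant regions within a library differed between the groups. The promoter was wider than the left neighbour in 6 of 6 Control and 2 of 6 Ethanol libraries, and wider than the right neighbour in 3 of 6 Control and 0 of 6 Ethanol libraries. How often such orders differ between the groups at other neighbouring regions was not counted. The ratio of the promoter's covered length to that of the right neighbour was 1.00, 0.989, 1.39, 0.772, 0.804 and 1.57 in Control 1 to 6. It was 0.505, 0.673, 0.381, 0.381, 0.693 and 0.559 in Ethanol 1 to 6. Here every Control library, Control 2 included, was above every Ethanol library, since Control 2 also had the shortest peak of the group at the right neighbour. The same full separation was met at 23 of 21618 pairs of neighbouring constant regions (0.106%). At the promoter it depended on the summed length of the right neighbour in Ethanol 2, made of peaks of 1357 and 425 bp. The 425 bp peak had the lowest score of its list. Against the 1357 bp peak alone, the promoter's 1199 bp in Ethanol 2 would give a ratio above the Control ratios of 0.772 and 0.804. The ratio holds the width on which the promoter was chosen, so it is a description, and the difference between promoter and neighbours was not tested.

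Pooled over the 12 libraries of both groups, the width of the promoter had small correlations with that of its neighbours. Pearson's r of the centred log2 covered lengths was -0.139 with the left neighbour and 0.03 with the right neighbour (n = 12 libraries). These libraries include both groups, which differ at the promoter, and share any effect of depth. Pooling can hide a relation within a group, which was not computed.

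The mean scores of the neighbours were higher in Ethanol, where that of the promoter was lower. At the left neighbour the score percentile was 69.7 ± 16.1 in Control and 80.0 ± 5.45 in Ethanol, and at the right neighbour 86.5 ± 2.24 and 89.2 ± 1.88 (SD, n = 6 each). The mean of both was 78.1 ± 8.11 in Control and 84.6 ± 3.00 in Ethanol, 6.49 points higher in Ethanol, with an exact permutation p of 0.0346 and, adjusted over the 3 tests of the window, 0.0682 (two-sided). It does not pass the threshold, and Control 3 stood apart at 62.0 through a left neighbour at 37.1. Without Control 3 the difference was 3.27 points, with an adjusted exact permutation p of 0.114.

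**Figure D5:**
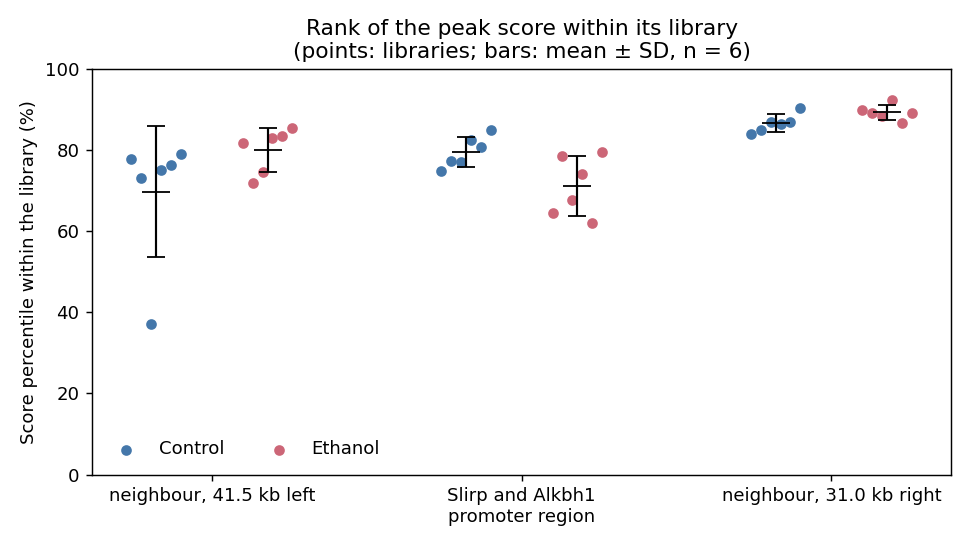
Percentile of the peak score within its own library (vertical axis, percent) at the promoter region and at the 2 constant neighbours, one point per library, with mean ± SD (n = 6). At the promoter the mean is 79.5 in Control and 71.0 in Ethanol, and at both neighbours the Ethanol mean is the higher one.

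Within a library, the promoter outranked the left neighbour in 5 of 6 Control libraries and in 1 of 6 Ethanol libraries. It outranked the right neighbour in 0 of 12 libraries. These orders hold the promoter's score and are a description. How often they differ between the groups at other neighbouring regions was not counted.

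The remaining neighbours were weak and irregular. They are 3 merged regions to the left of the promoter that held 17 peaks in all, with score percentiles of 9.65 to 47.4, and none scored above the median peak of its library. The region from 111441832 to 111442770, centred 34.3 kb left, had a peak in 1 of 6 Control libraries (Control 6) and in 5 of 6 Ethanol libraries (all but Ethanol 2). This was the most uneven of the neighbours. Its two-sided Fisher exact p was 0.0801, with an adjusted p of 1 over the 77224 regions found in at least 2 libraries. An excess of at least 4 Ethanol libraries was met by 698 of those regions (0.904%), 148 had an unadjusted Fisher exact p under 0.05 (0.192%), and 0 passed after adjustment (0%). The smallest Fisher exact p of 6 against 6 libraries is 0.00216, and 3344 regions would have had to reach it for any to pass, where 14 did. Its Ethanol peaks were 582 to 837 bp wide and the Control peak 565 bp. With every list cut to its 50370 highest scoring peaks, it was in 1 Control and 2 Ethanol libraries when ties at the cut were broken by position, or left out, and in 1 Control and 5 Ethanol libraries when all tied peaks were kept, since its peak was tied at the cut in Ethanol 1, 3, 5 and 6.

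The region from 111447223 to 111449225 had a peak in 5 of 6 Control and 4 of 6 Ethanol libraries, 630 to 1953 bp and 638 to 1281 bp wide (Fisher exact p = 1). The region from 111458661 to 111460098, the nearest to the promoter on the left, had a peak in 0 of 6 Control and 2 of 6 Ethanol libraries, Ethanol 4 and Ethanol 6 (Fisher exact p = 0.455). A region without a listed peak can still hold signal under the lists' threshold.

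Outside the promoter the window was not covered less after ethanol. Control libraries covered 3912 ± 1119 bp there and Ethanol libraries 4711 ± 920 bp (SD, n = 6 each), with an exact permutation p of 0.201, also 0.201 after adjustment. The number of peaks was 3, 3, 3, 2, 3 and 4 in Control 1 to 6. It was 4, 4, 4, 5, 3 and 5 in Ethanol 1 to 6. The means were 3.0 ± 0.632 and 4.17 ± 0.753 (SD, n = 6 each), with an exact permutation p of 0.0455 and an adjusted p of 0.0682, which does not pass. The smallest two-sided p this design allows is 0.00216. Divided by the size of the list the call changed, to 0.507 ± 0.0842 peaks per 10000 in Control and 0.666 ± 0.0663 in Ethanol (SD, n = 6 each), with an adjusted exact permutation p of 0.00649. With the lists cut to 50370 peaks, however, the difference was 0.167 peaks, with an adjusted exact permutation p of 1, and with all peaks tied at the cut kept it was 0.833 peaks, with an adjusted exact permutation p of 0.218.

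Elsewhere in the genome, the regions whose width followed the promoter most closely over the 12 libraries were on other chromosomes. The closest was chromosome 11 from 33801743 to 33803352 (r = 0.920), with 1375 ± 200 bp in Control and 1060.5 ± 114 bp in Ethanol. It was followed by chromosome 7 from 78557347 to 78559991 (r = 0.880), with 2157 ± 380 and 1739 ± 319 bp, and by chromosome 10 from 46817504 to 46820382 (r = 0.851), with 1969 ± 616 and 1315 ± 78.0 bp (SD, n = 6 each). All 3 were shortest in Control 2 among the saline libraries, as the promoter was, which choosing them by their correlation with it favours. They are the highest of 21639 correlations with the promoter, over libraries of both groups, and are given as a description. Their ends did not move alike. On chromosome 7 the left end moved in by 362.5 bp and the right by 52.2 bp, as at the promoter mainly on the left, while on chromosomes 11 and 10 the right end moved in by 342.7 and 715.3 bp.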

How the data were processed

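ATAC-seq libraries of 6 Control and 6 Ethanol amygdala samples were tagmented with a Nextera kit and sequenced in pairs. The submitters' processing notes name BWA, MACS2 2.1.1, bedtools 2.27.1, featureCounts 1.5.0, edgeR and the build Rnor_6.0. The deposited files are one peak list per library, with positions and a score per peak, both as the authors made them. Neither the normalization of the score nor the read depth is given in the sources used here.

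Peaks of all libraries that overlapped by at least 1 bp were merged. Covered length, outermost ends, number of peaks and the best score percentile were taken per region and library with Python 3.11.15. Log2 covered length, centred on each library's median, was fitted with limma 3.58.1 over all regions with a peak in all libraries. Detection was tested with Fisher's exact test, window sums with exact permutation over 924 assignments, and p-values were adjusted by Benjamini-Hochberg. The scripts were tested on simulated data. The genes, regions, lists and the rule for named regions (the promoter, all neighbours, and the 3 most similar regions) were chosen with earlier results of these data known. Gene lists of the LRPPRC and AlkB families were not analysed here for lack of an annotation of the lists' build, and the published read-count test was not rerun. Samples are labelled as separate samples, and the tests took the library as the unit.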

Additional observations from a re-analysis of the deposited data

Results flagged for a closer look

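The promoter peak of Control 2, at 1041 bp, stood apart from the other 5 Control libraries, which ranged from 1778 to 2083 bp. The left neighbour had a score percentile of 37.1 in Control 3, against 73.0 to 78.9 in the other Control libraries. Through that value the mean percentile of both constant neighbours was 62.0 in Control 3, against 78.9 to 84.7 in the others. In each case the gap to the nearest library, divided by the range of the group, exceeded Dixon's critical value for 6 samples. Chance flags about 1 in 20 groups, and 24 groups were examined, of which 3 were flagged.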

How the results depend on the processing

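The promoter was shorter in Ethanol under every alternative listed here, which describes the values the region was chosen for and is no support. The difference in covered length was -772.8 bp with the higher scoring 50% of peaks, with lists of the same number of peaks and as the mean of same-numbered pairs, since each library keeps the same single peak. Leaving out 1 library at a time gave -915.5 (without Control 2) to -707.1 bp, 444.6 to 622.4 bp for the left end, -329.2 to -201.1 bp for the right end and -10.2 to -6.66 percentile points for the score. The limma difference of the promoter ranged from -1.03 to -0.83. The constant neighbours gave 0 calls in all fits (the left one drops out with the higher scoring 50% of peaks). Detection gave 0 calls, which the number of libraries fixed and which says nothing about stability.

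Of 41 alternatives that keep all libraries, 6 concern ties at the cut of the lists and were chosen after seeing the data. By the rule for its kind of result, 40 left the result as it was. The exception was the number of peaks outside the promoter per 10000 peaks of the library (difference 0.159). For the promoter values, which have no test, the rule was the direction and rough size of the difference. For the width and detection of neighbours it was the number of calls only. For the 3 window tests it was the direction and the side of the threshold. The small log2 width differences of the constant neighbours did change sign. The left one became 0.04 without centring, and the right one -0.009 with the higher scoring 50% of peaks. In the 108 fits without 1 library, 102 left the result as it was by the same rules, and every change fell in the window tests. The rest were descriptions without a test or counts of 0 calls, so these totals say little about stability. The covered length outside the promoter differed by 548.0 to 1185 bp, passing at an adjusted p of 0.0476 without Control 5. The number of peaks differed by 0.967 to 1.40, passing without Control 5 (0.0476), Control 6 (0.0260) and Ethanol 5 (0.0325), and the mean neighbour percentile by 3.27 to 7.81, passing without Control 5 (0.0476) and Control 6 (0.0260). All are exact permutation tests, and the cause was not tested.

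Samples of the 2 groups share replicate numbers, but same-numbered samples did not deviate together (r from -0.0722 to 0.214), so the numbers were not taken as pairs. With the replicate number as a block, the promoter's limma difference was -0.90, the covered length outside the promoter differed by 799.2 bp (exact sign-flip p = 0.312), the number of peaks by 1.17 (0.0625) and the neighbour percentile by 6.49 (0.0312, higher in 6 of 6 pairs), with 0 calls after adjustment. An exact sign-flip p of 0.0312 is the smallest that 6 pairs can give and becomes 0.0938 over 3 tests when only 1 reaches it, as here. No single measure could therefore pass in this design unless another reached the same p. The lists give no read counts, so widths could not be set against depth.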
